A study of Sus scrofa with 15 samples.

Results

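The 10 genes described here were the mitochondrial genes *CYTB*, *ND4*, *ND5* and *ND6*, the nuclear regulators *TFAM*, *TFB2M*, *POLRMT*, *LRPPRC* and *PPARGC1A*, and *ZC3H10*. They were taken from a table of 43294 genes and assembled transcripts by their symbols, and all 10 had an entry. *ZC3H10* was chosen by its measured rise from the untreated to one of the treated groups, which was already known, so its levels are given as a description without a test. The other members were chosen by their role, but with earlier results of these data known.

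Mitochondrial DNA (mtDNA) is transcribed from both strands into long precursors, which are cut at the tRNAs that separate most genes. *TFAM* packages mtDNA and bends its promoters, *TFB2M* opens the promoter, and *POLRMT* is the polymerase itself. *LRPPRC* binds the finished mRNAs together with its partner *SLIRP* and keeps them polyadenylated, and *PPARGC1A* is a coactivator that drives nuclear genes for mitochondria. *ZC3H10* encodes a nuclear RNA-binding protein with CCCH zinc fingers that has been linked to mitochondrial function. In the early embryo mtDNA and many mitochondrial transcripts come from the oocyte, and a cloned embryo also receives mitochondria from the donor cell.

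RNA sequencing covered 15 libraries in 5 groups of 3. PFF were pig fetal fibroblasts at passages 2 to 5, the donor cells of somatic cell nuclear transfer (SCNT). SCNT4c and SCNT8c were untreated cloned embryos at the 4-cell and 8-cell stages. SCNT4c-KG were 4-cell embryos injected at 5 h after activation with 1000 ng/µl mRNA of *KDM4A*, an H3K9 demethylase. They were kept for 48 h in 0.1 µM GSK126, which blocks EZH2, the enzyme that methylates H3K27. Injection, *KDM4A* and GSK126 cannot be told apart, since none of them was given alone in the groups here. SCNT4c-TDG were 4-cell embryos given 500 ng/ml doxycycline from 40 to 72 h, made from fibroblasts that were transfected with an inducible vector for *TDG*, a thymine DNA glycosylase of DNA demethylation, and selected with puromycin. No group here received doxycycline without the vector, so the drug, the selected donor line and TDG cannot be told apart. The sample records of SCNT4c-TDG were numbered apart from those of all other groups. Whether its libraries were made or sequenced together with the others is not given, so such a difference cannot be told apart from the treatment. Each embryo library pooled 30 embryos, and its RNA was purified with another kit than that of PFF. The sources used here do not say whether libraries of a group came from separate cultures or nuclear transfer sessions, so p-values measure the spread between these libraries.

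Libraries held 12354649 to 15390472 reads in SCNT4c-KG, the shallowest group, and 17757929 to 22868038 in the others. The sample descriptions and titles disagreed on which table columns were SCNT4c and which SCNT4c-KG, and the titles were followed. *KDM4A* stood at 194 ± 103 (SD, n = 3) normalized reads in SCNT4c and 1448 ± 24.9 in SCNT4c-KG, but also at 775 ± 194 in SCNT4c-TDG, which was not injected, and 5005 ± 126 in PFF. *TDG* stood at 1713 ± 802 in SCNT4c and 55575 ± 5177 in SCNT4c-TDG, and at 4366 ± 436 in SCNT4c-KG, which had no vector. The summed level of 10 fibroblast markers was 3844430 to 4073420 in PFF. It was 4243 to 5457 in SCNT4c, 2155 to 2438 in SCNT8c, 2637 to 3865 in SCNT4c-KG and 1779 to 2334 in SCNT4c-TDG. The sum of 10 oocyte markers was 74606 to 93563 in SCNT4c, 39313 to 49394 in SCNT8c, 48139 to 73049 in SCNT4c-KG, 48249 to 49246 in SCNT4c-TDG and 11.5 to 20.3 in PFF, with *GDF9*, *BMP15* and *MOS* listed at 0 in every library. The 9 cumulus cell markers with an entry summed to 1394 to 1802 in SCNT4c, 1328 to 1923 in SCNT8c, 766 to 869 in SCNT4c-KG and 457 to 575 in SCNT4c-TDG, with *AMH*, *PTX3* and *FOXL2* at 0 in every embryo group. All 3 sums were lower in both treated groups than in SCNT4c, without overlap, but the markers of a list moved in both directions. Of 8 fibroblast markers tested, 3 rose (*VIM*, *THY1* and *S100A4*) and 4 fell in SCNT4c-KG, and 1 rose (*S100A4*) and 3 fell in SCNT4c-TDG. Of 6 oocyte markers tested, 2 rose (*ZP3* and *DPPA3*) and 1 fell in SCNT4c-KG, and 1 rose (*DPPA3*) and 2 fell in SCNT4c-TDG. Most of the oocyte sum in SCNT4c was *ZP4*, which went from 74784 to 35050.0 in SCNT4c-KG and 11245 in SCNT4c-TDG. Of 3 cumulus markers tested, 1 fell in each. Their part in the results below was not tested. In pooled embryos, fewer mitochondria and less RNA in each of them cannot be told apart.

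The table carried entries for all 13 protein genes of pig mtDNA, but *ND1*, *ND2*, *ND3*, *ND4L*, *COX1*, *COX2*, *COX3*, *ATP6* and *ATP8* were listed at 0 in all 15 libraries, fibroblasts included. In the authors' annotation these 9 genes shared one merged locus with *ND4*, *ND5*, *ND6* and an assembled transcript without a gene name, which reached from the start of mtDNA to base 15266. That transcript did carry reads, with 14584 ± 901 (SD, n = 3) in PFF, 28557 ± 3937 in SCNT4c, 35927 ± 3527 in SCNT8c, 47868 ± 14174 in SCNT4c-KG and 74718 ± 7002 in SCNT4c-TDG, all as normalized reads. A 0 for these 9 genes is therefore no measure of their RNA, and the values of *ND4*, *ND5* and *ND6* may hold part of their reads only. How the counting divided reads within the locus was not tested, and the same holds for copies of mtDNA in the nuclear genome.

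In the reference (Sscrofa11.1) *ND4* lies at MT:11359-12736, *ND5* at MT:12935-14755 and *CYTB* at MT:15342-16481 on the plus strand, and *ND6* at MT:14739-15266 on the minus strand. *ND5* and *ND6* run towards each other and share 17 bases, and *CYTB* starts 75 bases beyond the merged locus. Both junctions are shown from the plus strand of RefSeq's mtDNA because they bear on which gene a read was given to. The sources used here do not say whether reads were counted by strand. Libraries were made from amplified double-stranded cDNA, so reads of the *ND6* entry may stem from RNA of either strand. The capitals are the 17 bases that belong to both genes in the first sequence (MT:14719-14775) and the 75 bases between *ND6* and *CYTB* in the second (MT:15252-15356).
ND5-ND6 overlap: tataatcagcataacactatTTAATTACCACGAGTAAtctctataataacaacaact
ND6 to CYTB: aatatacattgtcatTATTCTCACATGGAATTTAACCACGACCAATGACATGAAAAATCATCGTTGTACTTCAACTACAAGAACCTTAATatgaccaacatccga
Only *CYTB* stood outside the merged locus, so its entry had no other gene to share reads with in the annotation. How reads in the 17 shared bases were assigned was not tested.

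The mitochondrial genes were highest in SCNT4c-TDG. *CYTB*, *ND5*, *ND6* and *ND4* together took 8.20 ± 0.589% (SD, n = 3) of all reads there, against 1.90 ± 0.291% in SCNT4c-KG, 1.75 ± 0.411% in SCNT8c, 1.05 ± 0.235% in SCNT4c and 0.761 ± 0.00311% in PFF. The lowest SCNT4c-TDG library, at 7.80%, was above the highest library of any other group, at 2.17%. The ranges of SCNT4c-KG and SCNT8c overlapped. Per library the shares rest on 168515 to 1736055 reads, which were amplified by PCR and are not separate molecules.

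Changed features were those that differed more than 2-fold with an adjusted p below 0.05 in limma, run on log2(normalized reads + 1), and every adjusted p was taken over all features tested. Between SCNT4c-KG and SCNT4c 37.2% of 18942 features were called changed and between SCNT4c-TDG and SCNT4c 33.3%. The calls were 5.79% between SCNT8c and SCNT4c, 16.2% between SCNT4c-TDG and SCNT4c-KG, and 78.2% of 19287 between SCNT4c and PFF. All but the comparison of the treatments share the SCNT4c libraries. Of the 4 mitochondrial genes, 3 rose in SCNT4c-KG (17.6% of all features rose) and 4 in SCNT4c-TDG (15.7%). The 4 are not separate observations, since they come from the same mtDNA, and *ND4*, *ND5* and *ND6* share the merged locus. In limma 0 of the 4 changed between SCNT8c and SCNT4c, although 3 were higher at an unadjusted p under 0.05, which 28.9% of all features had in either direction. There edgeR called 0 and DESeq2 1 (*ND6*, 1.43, adjusted p = 0.0287). Groups did not overlap for 3 of the 4 genes in SCNT4c-KG against SCNT4c (53.9% of all features), for 4 in SCNT4c-TDG against SCNT4c (58.4%), for 2 in SCNT8c against SCNT4c (23.5%) and for 4 between the treatments (44.4%), so a lack of overlap was common.

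*CYTB*, the mitochondrial subunit of complex III, was the most abundant gene of the set in treated embryos. Its normalized reads were 64275, 72278 and 43287 in the SCNT4c libraries a, b and c, and 82080, 95162 and 85858 in SCNT8c. In SCNT4c-KG they were 245364, 177012 and 191017, and in SCNT4c-TDG 710784, 791242 and 746487. The 5 groups did not overlap at any step of the order PFF, SCNT4c, SCNT8c, SCNT4c-KG, SCNT4c-TDG. *CYTB* rose by 1.79 ± 0.23 (SE) on the log2 scale in SCNT4c-KG (adjusted p = 3.65e-05) and by 3.68 ± 0.23 in SCNT4c-TDG (adjusted p = 7.76e-08), and was 1.89 ± 0.23 higher in SCNT4c-TDG than in SCNT4c-KG (adjusted p = 0.000129). The difference between SCNT8c and SCNT4c was 0.58 ± 0.23 (adjusted p = 0.118).

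**Figure D1:**
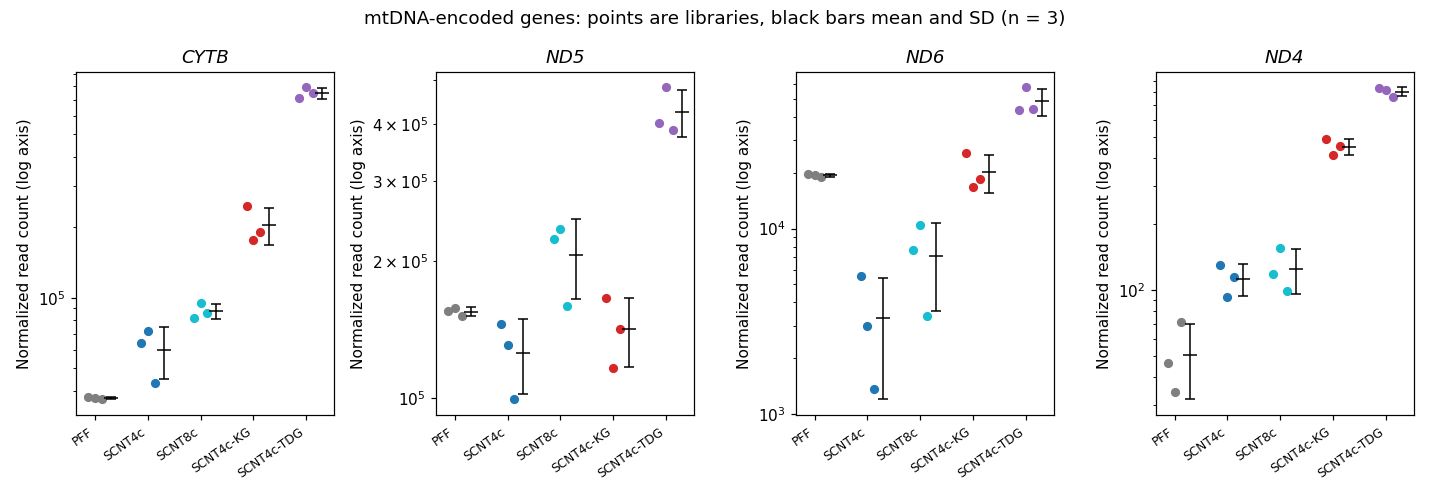
Normalized read counts (log axis) of the 4 mtDNA-encoded genes with reads, by group; points are libraries and black bars the mean and SD of 3 libraries. *CYTB* was at 710784 to 791242 in SCNT4c-TDG and at 43287 to 72278 in SCNT4c, while *ND5* overlapped between SCNT4c and SCNT4c-KG.

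*ND5*, a subunit of complex I, behaved differently in the treatments. It stood at 145466, 131106 and 99538 in SCNT4c and at 166190, 116734 and 141674 in SCNT4c-KG, and these ranges overlapped. The difference was 0.18 ± 0.24 (SE) on the log2 scale (adjusted p = 0.578), whereas in SCNT4c-TDG, at 403415, 482025 and 389398, *ND5* rose by 1.77 ± 0.24 (adjusted p = 5.64e-05). *ND5* was 1.59 ± 0.24 higher in SCNT4c-TDG than in SCNT4c-KG (adjusted p = 0.000475). In SCNT8c it was 223613, 235834 and 159048, above all SCNT4c libraries, with a difference of 0.71 ± 0.24 that missed the threshold (adjusted p = 0.0769).

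*ND6*, the complex I subunit encoded on the opposite strand, had fewer normalized reads than *CYTB* and *ND5* in every group, although per kilobase of exon it stood above *CYTB* in PFF (36817 against 32712). Its normalized reads spread widely in SCNT4c, at 5536, 3005 and 1374, and were 7637, 10395 and 3396 in SCNT8c. In SCNT4c-KG they were 25614, 16769 and 18410.2, a range that took in the 19049 to 19745 of PFF. In SCNT4c-TDG they were 43705, 57636 and 44287. *ND6* rose by 2.81 ± 0.45 (SE) on the log2 scale in SCNT4c-KG (adjusted p = 0.000250) and by 4.08 ± 0.45 in SCNT4c-TDG (adjusted p = 1.06e-05). The difference of 1.27 ± 0.45 between the treatments missed the threshold (adjusted p = 0.0672), although their libraries did not overlap. It passed with equal library totals (1.64, adjusted p = 0.0276), with edgeR (1.43, adjusted p = 0.0356) and in a fit of the 2 groups alone, both without a block (adjusted p = 0.000326) and with the replicate numbers as a block (adjusted p = 0.000176). Between SCNT8c and SCNT4c *ND6* differed by 1.19 ± 0.45 (adjusted p = 0.106), and by 1.65 without SCNT8c library 3 (adjusted p = 0.00651).

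*ND4*, a further complex I subunit in the middle of the merged locus, held only 27 to 1066 reads per library. Its normalized reads were 131, 92.6 and 115 in SCNT4c, 488, 414 and 455 in SCNT4c-KG and 835, 818 and 764 in SCNT4c-TDG. It rose by 2.00 ± 0.35 (SE) on the log2 scale in SCNT4c-KG (adjusted p = 0.000508) and by 2.84 ± 0.35 in SCNT4c-TDG (adjusted p = 2.94e-05). Per kilobase of exon, *ND4* stood at 82.0 in SCNT4c where *ND5* stood at 68847. Between the treatments the difference was 0.83 ± 0.35 (adjusted p = 0.123), and 1.20 with equal library totals (adjusted p = 0.0384). SCNT8c, at 119, 156 and 99.3, overlapped with SCNT4c.

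Ratios of reads between these genes within a library do not depend on how libraries were scaled. They do depend on how reads were divided within the merged locus, which was not tested. *ND5* reads per read of the assembled transcript of that locus were 10.6 ± 0.478 (SD, n = 3) in PFF and 4.37 ± 0.250 in SCNT4c. They were 5.80 ± 1.48 in SCNT8c, 3.04 ± 0.456 in SCNT4c-KG and 5.69 ± 0.424 in SCNT4c-TDG. For each *ND5* read there were 0.476 ± 0.0653 (SD, n = 3) *CYTB* reads in SCNT4c, 0.437 ± 0.0911 in SCNT8c, 1.45 ± 0.0878 in SCNT4c-KG, 1.77 ± 0.138 in SCNT4c-TDG and 0.241 ± 0.00467 in PFF. The SCNT4c-KG and SCNT4c-TDG libraries lay above all others. *ND6* reads per *ND5* read were 0.0249 ± 0.0123 in SCNT4c and 0.0332 ± 0.0114 in SCNT8c, but 0.143 ± 0.0121 in SCNT4c-KG, 0.114 ± 0.00562 in SCNT4c-TDG and 0.126 ± 0.00162 in PFF. This ratio was 0.108 to 0.154 over the libraries of fibroblasts and treated embryos. Over those of untreated embryos of both stages it was 0.0138 to 0.0441. Since the *ND6* entry may hold reads of either strand, the ratio is no measure of opposite-strand RNA alone.

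With 3 libraries against 3, the two-sided exact permutation test cannot give a p below 0.1. It was run on *CYTB* per *ND5*, *ND6* per *ND5* and *ND6* per *CYTB* read. Of these 15 comparisons, 11 had groups without overlap and this p. Adjusted over the 15, it was 0.136. Per *CYTB* read, *ND6* reads were 0.0532 ± 0.0290 in SCNT4c and 0.0646 ± 0.00726 in SCNT4c-TDG, which overlapped (exact permutation p = 0.4), while SCNT4c-KG stood higher at 0.0985 ± 0.00517 and PFF at 0.521 ± 0.00547.

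**Figure D2:**
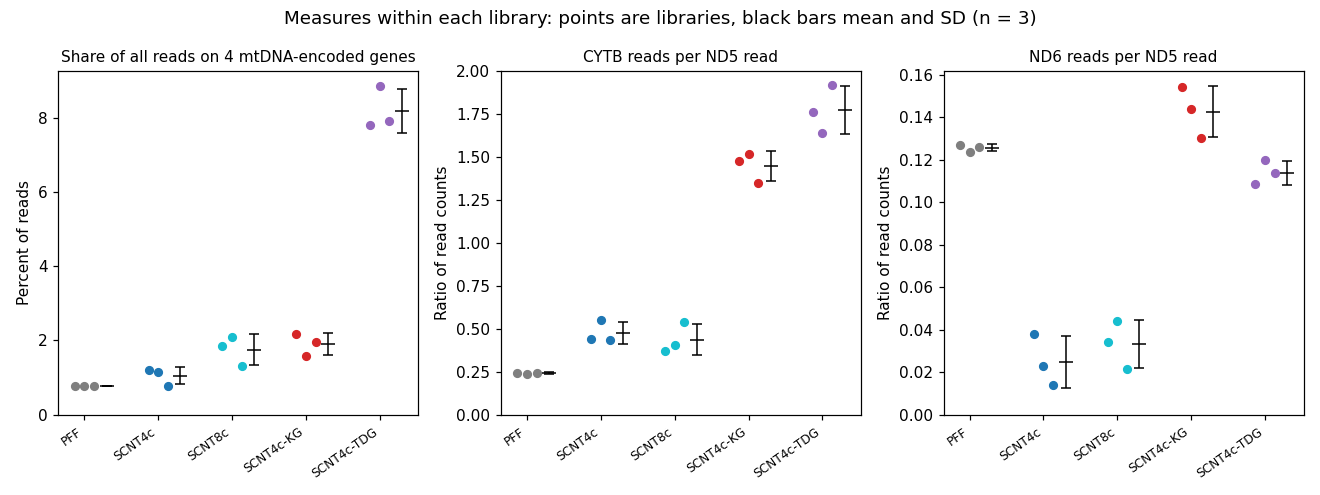
Percent of all reads on the 4 mtDNA-encoded genes (left) and reads of *CYTB* (middle) and *ND6* (right) per *ND5* read, by group, on linear axes from 0; points are libraries and black bars the mean and SD of 3 libraries. SCNT4c-TDG stood apart in the share (7.80% or more), and both treated groups stood above untreated embryos in both ratios.

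In PFF, *CYTB* was at 37686, 37198 and 36992 normalized reads and *ND5* at 155724, 157864 and 151145. Against PFF, SCNT4c had *CYTB* higher by 0.65 ± 0.19 (SE) on the log2 scale, below the 2-fold limit (adjusted p = 0.0168), and past it with equal library totals (1.27). *ND5* differed by -0.32 ± 0.14 (adjusted p = 0.0662) and turned to 0.30 with equal library totals, to 0.57 with quantile normalization, to 0.43 with edgeR and to 0.47 with DESeq2. *ND6* was lower in SCNT4c, with a log2 fold change of -2.78 ± 0.48 (adjusted p = 0.00188) and stayed lower under every alternative tried, at -3.26 to -1.79. *ND4*, at 46.4, 34.4 and 71.5 in PFF, was higher in SCNT4c by 1.19 ± 0.34 (adjusted p = 0.0166), a call lost without PFF library 1 (1.16, adjusted p = 0.0528) or 2 (0.94, adjusted p = 0.0513). Of all features, 84.5% had no overlap between SCNT4c and PFF, so the lack of overlap of all 4 genes was usual. RNA purification and input differed between these groups and cannot be told apart from the cell type.

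The nuclear regulators moved in both directions. Of the 4 that could be tested, *TFAM* and *TFB2M* rose and *LRPPRC* fell in SCNT4c-KG (17.6% of all features rose and 19.6% fell). In SCNT4c-TDG *TFB2M* alone rose (15.7% of all features rose and 17.6% fell). The median log2 fold change of the 4 regulators tested was 0.33 in SCNT4c-KG and 0.73 in SCNT4c-TDG. It was 1.90 and 3.26 for the 4 mitochondrial genes and -0.30 and -0.26 for all features.

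*TFAM* lies at chr14:92261713-92279731 on the minus strand. Its normalized reads were 4336, 3808 and 7868 in SCNT4c, 7623, 5750.1 and 4711 in SCNT8c, 10410.4, 11157 and 11106 in SCNT4c-KG and 8909, 7459 and 9509 in SCNT4c-TDG. SCNT4c library c was the only SCNT4c library above the lowest SCNT4c-TDG library. *TFAM* rose by 1.10 ± 0.29 (SE) on the log2 scale in SCNT4c-KG (adjusted p = 0.00777), and fell short of the 2-fold limit without SCNT4c library a (0.99, adjusted p = 0.0314) or b (0.90, adjusted p = 0.0455) and with quantile normalization (0.77). In SCNT4c-TDG the difference was 0.76 ± 0.29 (adjusted p = 0.0536), and it passed without SCNT4c library c (1.08, adjusted p = 0.0106), with quantile normalization (1.02) and with equal library totals (1.04). *TFAM* was not called different between the treatments (-0.34 ± 0.29, adjusted p = 0.461), a difference that turned to 0.02 with equal library totals, to 0.12 with equal totals outside mtDNA and to 0.24 with quantile normalization. Fibroblasts had far less, at 781, 895 and 826, and SCNT4c was 2.60 ± 0.28 higher (adjusted p = 0.000214).

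*TFB2M* lies at chr10:19028813-19046343 on the minus strand. Its normalized reads spread widely in SCNT4c, at 465, 846 and 1455, and were 2706, 2028 and 1631 in SCNT8c. They were 2219.9, 3052 and 4712 in SCNT4c-KG and 2903, 3666 and 3325 in SCNT4c-TDG, which overlapped, and no SCNT4c library reached any of these groups. *TFB2M* rose by 1.93 ± 0.39 (SE) on the log2 scale in SCNT4c-KG (adjusted p = 0.00146) and by 1.98 ± 0.39 in SCNT4c-TDG (adjusted p = 0.00132). Between the treatments the difference was 0.05 ± 0.39 (adjusted p = 0.953). SCNT8c was above SCNT4c by 1.32 ± 0.39 (adjusted p = 0.0569), and the difference passed without SCNT4c library c (1.72, adjusted p = 0.0486) or SCNT8c library 3 (1.49, adjusted p = 0.00979), and with all libraries with DESeq2 (1.43, adjusted p = 0.0156), quantile normalization (1.37, adjusted p = 0.0499), a minimum mean of 50 (adjusted p = 0.0434) or a pseudocount of 10 (1.31, adjusted p = 0.0482). In PFF *TFB2M* was 385, 381 and 380.2. SCNT4c was 1.12 ± 0.41 higher (adjusted p = 0.0413). This call was lost without PFF library 1, 2 or 3 and without SCNT4c library b or c. With all libraries it was lost when all features above 0 were tested (adjusted p = 0.0504). The lowest value was 0.71, without SCNT4c library c (adjusted p = 0.0712).

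*LRPPRC* (chr3:96474510-96590706, plus strand) separated the treatments. Its normalized reads were 1721, 2358 and 2364 in SCNT4c, 884, 904 and 1386 in SCNT4c-KG, 3444, 3623 and 3228 in SCNT4c-TDG and 2321, 2749 and 1570.0 in SCNT8c. The SCNT4c libraries lay between those of SCNT4c-KG and SCNT4c-TDG without overlap. *LRPPRC* was 1.73 ± 0.30 (SE) higher on the log2 scale in SCNT4c-TDG than in SCNT4c-KG (adjusted p = 0.00128), and kept this call in all 17 alternatives, at 1.61 to 2.19. Its fall in SCNT4c-KG was -1.04 ± 0.30 (adjusted p = 0.0127) and slipped under the 2-fold limit or the p threshold without SCNT4c library b or c (-0.96 each), without SCNT4c-KG library 1 (-0.92) or 2 (-0.94), and with quantile normalization (-0.97), edgeR (-0.93) and DESeq2 (-0.87). The difference of 0.69 ± 0.30 in SCNT4c-TDG against SCNT4c missed the threshold (adjusted p = 0.0838), and passed it with equal library totals outside mtDNA (1.07, adjusted p = 0.0195). PFF had the most, at 5450, 5740 and 5292, and the log2 fold change of SCNT4c was -1.37 ± 0.15 (adjusted p = 0.000226), or -0.56 with DESeq2 and -0.75 with equal library totals, below the 2-fold limit.

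*PPARGC1A* (chr8:17841844-18527953, minus strand) was low throughout, with 2 to 126 reads per library. Its normalized reads were 86.8, 58.5 and 53.1 in SCNT4c, 98.0, 47.0 and 22.8 in SCNT4c-KG, 20.1, 16.1 and 58.2 in SCNT4c-TDG and 13.1, 105 and 19.0 in SCNT8c. The embryo groups overlapped, and no difference between them passed (adjusted p = 0.269 to 0.705). SCNT4c was above the 8.55, 12.7 and 2.38 of PFF by 3.11 ± 0.58 (SE) on the log2 scale (adjusted p = 0.00266). An assembled transcript at the same locus held 106 ± 151 (SD, n = 3) normalized reads in SCNT4c, from 0 to 279, and adding it changed no call.

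*POLRMT* (chr2:77694271-77708099, plus strand) had reads in 4 of the 15 libraries and never more than 3, and could not be tested. The 3 PFF libraries stood at 1.22, 3.82 and 2.38 normalized reads, and a count of 0 allows up to 2.30 to 4.90 normalized reads in an embryo library (3 reads, counting error only). Fibroblasts, which need this polymerase, were also near 0 with 22224949 to 22868038 reads per library, so the entry gave no measure of its RNA. The limit on a count of 0 therefore holds for the entry and not for the gene. An assembled transcript at its locus was at 13.4 ± 8.12 (SD, n = 3) in PFF and at 1.14 ± 1.34 in SCNT4c.

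**Figure D3:**
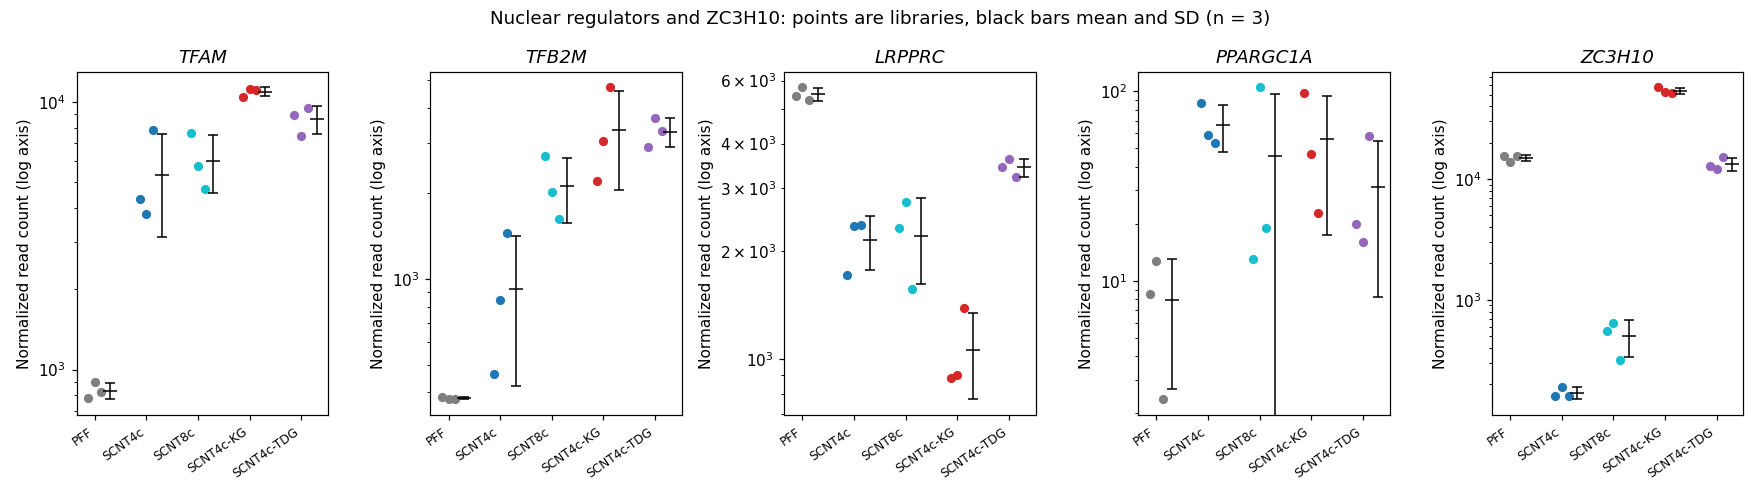
Normalized read counts (log axis) of *TFAM*, *TFB2M*, *LRPPRC*, *PPARGC1A* and *ZC3H10*, by group; points are libraries and black bars the mean and SD of 3 libraries, cut where the SD reaches below the axis. *LRPPRC* was at 884 to 1386 in SCNT4c-KG and at 3228 to 3623 in SCNT4c-TDG, with SCNT4c between them, and *ZC3H10* spanned 159 to 57266 over the embryo libraries.

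The 250 bases before the start of *TFAM*, *TFB2M* and *LRPPRC* are shown with their CG sites in capitals, because these were the regulators called changed between a treated group and SCNT4c, and methylated CG is the substrate of the demethylation pathway that *TDG* belongs to. The sequences are RefSeq's, Sscrofa11.1, read in the direction of each gene, from chr14:92279732-92279981, chr10:19046344-19046593 and chr3:96474260-96474509.
TFAM: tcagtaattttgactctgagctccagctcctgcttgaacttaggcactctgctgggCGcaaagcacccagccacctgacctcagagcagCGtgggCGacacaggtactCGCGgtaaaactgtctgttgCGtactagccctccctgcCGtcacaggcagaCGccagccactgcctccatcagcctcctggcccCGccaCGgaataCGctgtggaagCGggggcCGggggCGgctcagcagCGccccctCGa
TFB2M: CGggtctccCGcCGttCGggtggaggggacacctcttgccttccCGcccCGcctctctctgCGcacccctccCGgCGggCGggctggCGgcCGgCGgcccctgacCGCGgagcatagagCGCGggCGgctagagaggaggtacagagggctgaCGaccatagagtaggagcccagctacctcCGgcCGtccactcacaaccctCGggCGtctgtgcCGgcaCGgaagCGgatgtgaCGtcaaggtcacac
LRPPRC: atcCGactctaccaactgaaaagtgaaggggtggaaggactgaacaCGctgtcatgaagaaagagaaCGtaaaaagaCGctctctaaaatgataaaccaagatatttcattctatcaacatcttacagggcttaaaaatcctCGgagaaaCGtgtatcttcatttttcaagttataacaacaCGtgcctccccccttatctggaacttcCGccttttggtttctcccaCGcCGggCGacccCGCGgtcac
The count of CG was 16 in *TFAM*, 27 in *TFB2M* and 13 in *LRPPRC*, beside a median of 11 over 20651 promoters of the same length, of which 39.1%, 15.7% and 46.5% had as many or more. These 3 windows held neither the letters CCGGAAG, known for the factor *GABPA*, nor AAGATGGC (*YY1*), nor the palindromic *NRF1* motif, on either strand. Of all promoters, 7.48% held the *GABPA* letters, 1.46% those of *YY1* and 4.58% the *NRF1* motif. Starts of genes are those of the annotation and were not measured in these libraries.

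*ZC3H10* (chr5:21506510-21513972, plus strand) was chosen by its rise, so the wide spread between its groups follows from the choice and is only described. Its normalized reads were 159, 191 and 159 in SCNT4c, 551, 648 and 319 in SCNT8c, 57266, 52313 and 51699.5 in SCNT4c-KG and 12739, 12084 and 15125 in SCNT4c-TDG, against 15504, 13942 and 15499 in PFF. SCNT4c-KG was 317 times SCNT4c by the means, SCNT4c-TDG 78.4 times and SCNT8c 2.98 times. PFF and SCNT4c-TDG overlapped, and every other step of the order was without overlap. Between SCNT8c and SCNT4c 23.5% of all features had no overlap, and for the other steps this share was not counted. The values come from 192 to 41223 reads per library.

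The features closest in pattern to *ZC3H10* over the 12 embryo libraries were *NDUFB1*, a complex I subunit (Pearson r of log2(normalized reads + 1) = 0.996), *RPL31*, a ribosomal protein gene (0.995), an unnamed assembled transcript (0.994), *THG1L*, a tRNA-modifying enzyme (0.994), and *PSMB3*, a proteasome subunit (0.994). The 12 libraries fall into 4 groups that set most of these values, so the r describe the order of groups. *RPL31* went from 83.0 in SCNT4c to 14196 in SCNT4c-KG, 4573 in SCNT4c-TDG and 13239 in PFF. The median over 76 entries named as ribosomal proteins, a list drawn up after seeing the data, was 361 in SCNT4c, 783 in SCNT8c, 15288 in SCNT4c-KG, 3873 in SCNT4c-TDG and 10573 in PFF. PFF and SCNT4c-TDG overlapped for *ZC3H10* but differed for this median, and no weight is placed on the likeness of the orders.

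The gene model that was counted under *ZC3H10* holds more than the zinc finger protein. Its longer transcript has 6 exons and 4483 bases, and the 435 codons of the protein lie in 1 exon (chr5:21510612-21511919), after 1122 bases annotated as untranslated. Within those bases, a reading frame of 25 codons begins at transcript base 121 and spans 3 exons (chr5:21506743-21507482), and 17 of its 25 codons specify lysine or arginine. This length and composition are those of the cytosolic ribosomal protein RPL41, whose gene lies beside *ZC3H10* in human. The annotation holds 0 genes named *RPL41*, and the table has 0 entries of that name. A gene-level count does not say which exons the reads came from, so how much of the *ZC3H10* value belongs to the zinc finger protein was not tested. An antisense RNA, LOC106507497, overlaps the coding exon on the other strand (chr5:21510194-21512291) and stood at 0 to 32.7 normalized reads in the embryos.

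**Figure D4:**
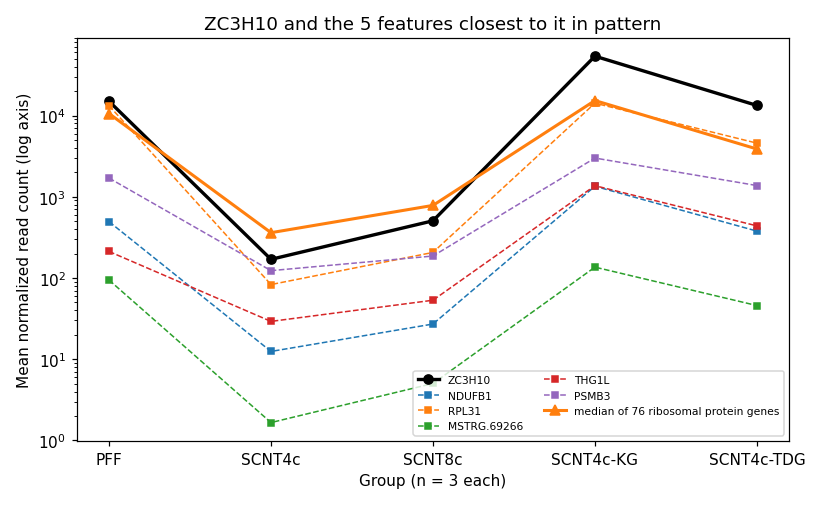
Mean normalized read count (log axis) of *ZC3H10* (black), the 5 features with the closest pattern over the embryo libraries (dashed) and the median of 76 ribosomal protein entries (orange), by group with n = 3; lines join groups to guide the eye. All were lowest in SCNT4c and highest in SCNT4c-KG, where *ZC3H10* reached 53760 and the ribosomal protein median 15288.

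Beside the members, 81 nuclear genes for mtDNA transcription, replication, RNA processing, RNA modification, translation and biogenesis were listed, of which 79 had an entry and 57 passed the minimum mean of 10 normalized reads in embryos. In SCNT4c-KG 20 of the 57 rose and 7 fell, with a median log2 fold change of 0.67. In SCNT4c-TDG 20 rose and 8 fell, with a median of 0.80. Of all features, 17.6% rose and 19.6% fell in SCNT4c-KG, and 15.7% rose and 17.6% fell in SCNT4c-TDG. Without SCNT4c-TDG library 2, 13 rose in SCNT4c-TDG (11.5% of all features).

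*SLIRP*, the partner of *LRPPRC*, went from 15.7 ± 11.9 (SD, n = 3) normalized reads in SCNT4c to 3328 ± 144 in SCNT4c-KG and 1640 ± 123 in SCNT4c-TDG, with log2 fold changes of 8.01 ± 0.58 (SE, adjusted p = 1.09e-07) and 6.99 ± 0.58 (adjusted p = 7.85e-07). In PFF it was 299 ± 38.4. The partners differed in SCNT4c-KG, where *LRPPRC* was lower and *SLIRP* higher than in SCNT4c. The other large rises in SCNT4c-KG were *PPRC1*, a relative of *PPARGC1A* (4.20 ± 1.04, adjusted p = 0.00573), and *PTCD3*, a protein of the mitochondrial ribosome (3.53 ± 0.68, adjusted p = 0.00104). In SCNT4c-TDG they were the RNA methyltransferase gene *NSUN2* (3.17 ± 0.60, adjusted p = 0.000964) and the release factor gene *MTRF1L* (2.89 ± 0.33, adjusted p = 1.31e-05).

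*MTERF3*, a negative regulator of mtDNA transcription, was among the largest falls, at 7763 ± 1093 (SD, n = 3) in SCNT4c, 820 ± 148 in SCNT4c-KG and 905 ± 63.8 in SCNT4c-TDG, with log2 fold changes of -3.25 ± 0.26 (SE, adjusted p = 2.63e-07) and -3.09 ± 0.26 (adjusted p = 7.85e-07). In SCNT8c it stood between, at 3904 ± 515. *POLG2*, the accessory subunit of the mtDNA polymerase, fell from 1921 ± 249 to 264 ± 90.0 and 236 ± 44.3 (-2.91 ± 0.34, adjusted p = 1.64e-05, and -3.03 ± 0.34, adjusted p = 1.33e-05). *PRIMPOL*, a primase-polymerase, fell by 2.67 ± 0.43 on the log2 scale in SCNT4c-KG (adjusted p = 0.000257). *RNASEH1*, which removes RNA from RNA-DNA hybrids during mtDNA replication, fell by 3.65 ± 0.28 on the log2 scale in SCNT4c-TDG (adjusted p = 3.81e-07), from 2129 ± 232 to 168 ± 10.6. Other genes of the same transcription and replication lists rose: *SSBP1*, the single-strand DNA-binding protein of mtDNA, by 2.78 ± 0.31 (adjusted p = 1.08e-05) in SCNT4c-KG and by 1.46 ± 0.31 (adjusted p = 0.00244) in SCNT4c-TDG, the elongation factor gene *TEFM* by 2.17 ± 0.60 (adjusted p = 0.0112) in SCNT4c-KG, and the termination factor gene *MTERF1* by 1.85 ± 0.45 (adjusted p = 0.00573) in SCNT4c-TDG. These 3 were named after their values were seen, as was *TACO1*, an activator of mitochondrial translation, which was low and fell by 3.47 ± 0.93 (adjusted p = 0.00954) in SCNT4c-TDG, from a mean of 24.9 to 1.30.

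Between the treatments 5 of the 57 genes were higher and 6 lower in SCNT4c-TDG (7.07% and 9.13% of all features), with a median of -0.23. Over the alternatives 3 to 7 were higher and 2 to 12 lower, with 2 lower for equal library totals or without SCNT4c-TDG library 3, 3 lower without SCNT4c-KG library 1 or 2, and 12 lower in a fit of the 2 groups. The share of all features that was lower was 5.83% with equal library totals, 5.80% to 5.88% without these libraries and 16.1% in the fit of the 2 groups. *RNASEH1* was lower (log2 fold change -2.89 ± 0.28 SE, adjusted p = 1.72e-05), since SCNT4c-KG stood at 1271 ± 263 (SD, n = 3). *NRF1*, the transcription factor of nuclear genes for mitochondria, was lower (-1.64 ± 0.34, adjusted p = 0.00403), at 1526 ± 187 against 4745 ± 372. *TUFM*, a mitochondrial elongation factor, was lower (-1.51 ± 0.37, adjusted p = 0.0120), a call lost without SCNT4c-KG library 1 (-1.42, adjusted p = 0.0509) or SCNT4c-TDG library 3 (-1.28, adjusted p = 0.0687) and with equal library totals (-1.14, adjusted p = 0.0607). *MTERF1* (2.31 ± 0.45, adjusted p = 0.00307), the protease subunit gene *CLPX* (1.97 ± 0.41, adjusted p = 0.00421) and the elongation factor gene *GFM1* (1.78 ± 0.36, adjusted p = 0.00396) were higher in SCNT4c-TDG.

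Of the 57 genes, 3 rose from SCNT4c to SCNT8c and 0 fell in limma (2.62% and 3.16% of all features), with 19 higher and 5 lower at an unadjusted p under 0.05 (28.9% of all features in either direction), and edgeR and DESeq2 called 0 lower. They were the protease gene *CLPP* (2.52 ± 0.48 SE, adjusted p = 0.0189), *SSBP1* (1.63 ± 0.31, adjusted p = 0.0189), and *TUFM* (1.34 ± 0.37, adjusted p = 0.0479). These calls rest on the spread pooled over all embryo groups: 0 of the 57 passed in a fit of the 2 groups alone, without SCNT4c library b or without SCNT8c library 1 or 2, 1 passed without SCNT4c library c, and 21 rose and 5 fell without SCNT8c library 3, where 12.4% of all features rose and 19.9% fell. Called higher were 4 by edgeR (3.53% of all features) and 16 by DESeq2 (10.4%). *SSBP1* lost its limma call without SCNT4c library a (1.35, adjusted p = 0.0604). *TUFM* also lost its call with a pseudocount of 0.1 (adjusted p = 0.0553), with all features above 0 (adjusted p = 0.0763), with equal library totals (adjusted p = 0.0509) or equal totals outside mtDNA (adjusted p = 0.0504), and without SCNT4c library a (1.30, adjusted p = 0.122) or c (1.44, adjusted p = 0.0852).

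In SCNT4c against PFF, 59 genes of the lists could be tested, of which 10 were higher and 30 lower (39.7% and 38.5% of all features), with a median of -1.23 beside 0.07 over all features. DESeq2, which moved the median of all features by 0.94, called 18 higher and 19 lower (47.4% and 30.8% of all features). *ESRRB*, an orphan receptor of early embryos, was at 388 ± 92.8 (SD, n = 3) in SCNT4c and 0 to 1.27 in PFF, and *PRIMPOL* and *MTERF3* were higher by 3.51 ± 0.17 (SE, adjusted p = 6.88e-06) and 2.78 ± 0.13 (adjusted p = 6.14e-06). *NSUN2* was lower (-6.65 ± 0.63, adjusted p = 0.000115), as was *PPRC1* (-5.83 ± 0.90, adjusted p = 0.00114), and *NSUN3*, which modifies a mitochondrial tRNA, was at 0 to 2.49 in SCNT4c and 106 to 110 in PFF.

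**Figure D5:**
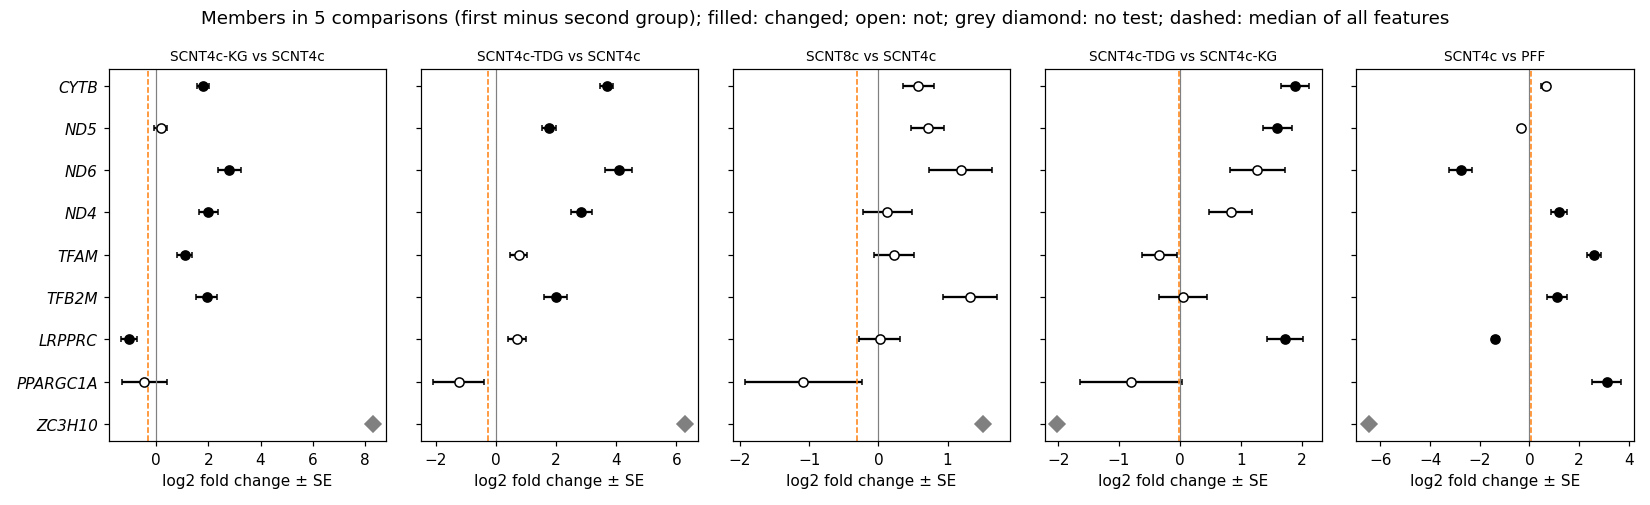
Log2 fold changes (first minus second group, points) with their SE (bars) for the 9 members tested or described, in 5 comparisons with separate axes; filled points were called changed, open points were not, grey diamonds mark *ZC3H10*, given without a test, and dashed lines are the median of all features. *CYTB*, *ND6* and *ND4* lay right of 0 in both treatments, *ND5* at 0.18 in SCNT4c-KG, and *LRPPRC* on either side of 0 in SCNT4c-KG (-1.04) and SCNT4c-TDG (0.69).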

How the data were processed

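RNA-seq libraries of 15 pig samples were analysed. The authors mapped reads uniquely to Sscrofa11.1 (Trimmomatic 0.39, STAR 2.5.3a), assembled transcripts (StringTie 2.1.2) and counted reads per gene with HTSeq. The deposited signal is this read count divided by one factor per library. Values were whole multiples of 1 read within 0.01 reads, so whole reads were recovered for 100% of them. Strandedness of counting is not given in the sources used here. Removal of 241 repeated gene IDs left 43294 entries. Features averaging 10 or more normalized reads entered limma (3.58.1, trend) on log2(value + 1), with the 12 embryo libraries in one fit and SCNT4c with PFF in another, and p-values were adjusted by Benjamini-Hochberg. The pseudocount understates changes of low genes. On the recovered reads, edgeR (4.0.16, quasi-likelihood) called 5831 features in SCNT4c-KG, 5528 in SCNT4c-TDG and 842 in SCNT8c against SCNT4c, 2555 between the treatments and 14797 in SCNT4c against PFF, and DESeq2 (1.42.0) called 7237, 6982, 2733, 3968 and 15079 in the same order. Other pseudocounts, filters, normalizations, fits of 2 groups and leaving out libraries were also tried. Adding the transcripts assembled at a locus to its gene, adding the assembled mtDNA transcript to the share and leaving libraries out of the ratios were chosen after seeing the data. The members and lists were chosen with earlier results of these data known. Of the lists, the text names per comparison the 3 largest rises and falls among changed genes without overlap that averaged 50 or more in their higher group, and the 5 features closest to *ZC3H10* and to each mtDNA-encoded gene by Pearson r. The fits were tested on simulated data.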

Additional observations from a re-analysis of the deposited data

How the results depend on the processing

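Of 725 values of the members under alternatives, 655 kept their direction and their side of the threshold, 27 were no longer changed, 26 became changed and 17 turned. In SCNT4c against PFF, *ND5* turned to 0.57 with quantile normalization, 0.30 with equal totals (also 0.30 without mtDNA), 0.43 with edgeR and 0.47 with DESeq2. These scalings other than quantile moved the median of all features by 0.79 to 0.94, against at most 0.45 in the embryo comparisons. Between the treatments *TFAM* turned to 0.24 with quantile normalization, 0.021 with equal totals and 0.12 with equal totals outside mtDNA. In SCNT8c against SCNT4c *LRPPRC* turned to -0.0085 with quantile normalization. Leaving out 1 library gave -0.15 to 0.25 for *LRPPRC* and -0.044 to 0.28 for *ND4* in SCNT8c, -0.96 to 0.070 for *PPARGC1A* in SCNT4c-KG and -0.21 to 0.33 for *TFB2M* between the treatments. The cause was not tested.

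Changed features numbered 1096 in SCNT8c against SCNT4c, but 1662 with a pseudocount of 10, 601 with all features above 0, 2733 with DESeq2, 0 in a fit of the 2 groups (limma, 5480 at an unadjusted p under 0.05 in the fit of 4 groups) and 31 to 6133 without 1 library, the highest without SCNT8c library 3. Between the treatments 3070 became 4989 in a fit of the 2 groups and 1794 to 2521 without 1 library. With the replicate numbers as a block in that fit there were 4805. The numbers share no stated origin, same-numbered libraries deviated with r of -0.0012 to 0.0246, and the block gained no member a call beyond the fit of the 2 groups, where *ND6* was called with and without it. In SCNT4c against PFF 15083 became 10020 with a minimum mean of 50. The share of calls that were higher moved from 47.1% to 60.2% (SCNT4c-TDG) and from 43.6% to 69.6% (between the treatments) with equal totals outside mtDNA, and from 45.3% to 79.5% with edgeR (SCNT8c). With known genes only as the total, mtDNA-encoded genes took 0.776% of reads in PFF and 8.83% in SCNT4c-TDG, and 0.813% in PFF with the assembled transcript. Few reads limit *PPARGC1A* and *ND4*, and the *POLRMT* entry gave no measure of its RNA.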

Other observations

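The features closest to the mitochondrial genes in pattern over the 12 embryo libraries were nuclear genes of varied kinds, and the r describe the order of 4 groups rather than 12 separate points. For *CYTB* they were LOC100627195 (Pearson r = 0.980), the microRNA gene *MIR9794*, the phosphatase gene *PPM1B*, the sugar transporter gene *SLC35A1* and *NFYB*, a subunit of the NF-Y transcription factor (0.972). *NFYB* went from 1291 normalized reads in SCNT4c to 3632 in SCNT4c-KG and 8338 in SCNT4c-TDG, and *PPM1B* from 15.5 to 176 and 771. For *ND4* they were *ZBTB11* (0.990), the peroxiredoxin gene *PRDX1*, *ANKRD49*, *OTUD4* and *CLDND1* (0.984).

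None of the 4 genes shared a neighbour among its closest 5 with another. For *ND5* they were the lysosomal ceramidase gene *ASAH1* (Pearson r = 0.968), *NAMPT*, an enzyme of NAD synthesis, *ZNF658*, the cytokine receptor gene *IL6ST* and the TGF-beta receptor gene *TGFBR1* (0.948). *NAMPT* stood at 299 normalized reads in SCNT4c, 407 in SCNT4c-KG and 1424 in SCNT4c-TDG. For *ND6* they were *FBXW11* (0.981), the adenosine kinase gene *ADK*, *VBP1*, the small GTPase gene *RAP1B* and *B3GNT2* (0.967). *RAP1B* went from 1125 in SCNT4c to 11635 in SCNT4c-KG and 27062 in SCNT4c-TDG.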
